A study of Mus musculus with 6 samples.

Results

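Interferon-stimulated genes were followed in sorted mouse pro-B cells with and without the histone deacetylase HDAC7. The list held 36 genes that are classically induced by interferon, and it was set by name, with earlier results of these data known. A gene was measured where a probe set carried its symbol alone, and where several did, the brightest on average stood for it. This gave 32 of the 36 genes, among 17097 genes measured in all; Isg15, Ifi44, Bst2 and Tap1 had no such probe set here. There were 3 arrays of pro-B cells from wild-type mice and 3 from mice labelled HDAC7 deficient, which the series describes as carrying a conditional HDAC7 allele. In both groups the cells were sorted as B220+CD43+IgM-, a gate for B cell precursors of bone marrow. The sources used here do not state the mice's ages, the driver of the deletion or whether animals were pooled. No interferon or other agent is named for either group. RNA from sorted cells was amplified before hybridisation to Affymetrix mouse PM strip arrays, and all values below are the deposited log2 expression values, given in the order of replicates 1, 2 and 3.

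One array needs to be known before the results. Wild-type replicate 3 correlated at 0.700 to 0.824 with the other arrays, its interquartile range was 1.72 against 2.27 to 2.93, and the 3' probe set of Actb exceeded the mid-transcript one by 1.69, against 0.16 to 0.26. The level below which 95% of 41 olfactory receptor genes fell, used here as a mark of dim signal, was 7.93 on this array and 5.56 to 6.34 on the others. On wild-type replicate 3, 6 of the 32 interferon-stimulated genes lay above that mark, against 24 to 32 on the other arrays. Of all 17097 genes, 2223 lay above it there, against 8935 to 10863 on the other arrays. Arrays also divided by Xist, the RNA of X inactivation: it read 8.51 on wild-type replicate 3, 11.40 and 11.27 on HDAC7-deficient replicates 2 and 3, and at most 5.38 elsewhere. The labels do not give this division. Results are therefore given with and without wild-type replicate 3 and, where stated, within the Xist-low arrays, where HDAC7-deficient replicate 1 is set against wild-type replicates 1 and 2. Hdac7 itself read 9.06, 9.48 and 7.31 in wild type and 9.95, 9.54 and 9.27 on the arrays labelled HDAC7 deficient, so the target gene was not lower but higher there. The difference was 0.97 ± 0.59 (limma adjusted p = 0.399), or 0.31 without wild-type replicate 3, against the label. The position of its probes relative to the deleted part is unknown here, which leaves the labels unchecked; all differences below compare the arrays by their labels. The pro-B markers Vpreb1, Ebf1 and Cd79a read 9.97 to 11.53, 10.15 to 10.48 and 8.34 to 10.04 over the 6 arrays. Transcripts of other cells were present too: the neutrophil genes S100a8 and Mpo read 10.79 to 11.82 and 9.92 to 11.98.

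Type I interferons signal through the receptor chains IFNAR1 and IFNAR2 and the kinases JAK1 and TYK2 to a complex that holds STAT2 and IRF9 and binds the interferon-stimulated response element (ISRE) in gene promoters. Interferon gamma acts mainly through the gamma-activated site (GAS) and induces Irf1. The induced proteins sense viral RNA, block translation, degrade or bind viral RNA, conjugate ISG15 to proteins or feed peptides to MHC class I. Low tonic interferon signalling keeps many of these genes at a basal level in blood-forming cells without infection.

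Promoter windows of 300 bases, 250 before and 50 after the annotated start, were present in the RefSeq table (GRCm38.p6) for 24 of the 32 measured genes. The ISRE was searched as GAAANNGAAA and the GAS as TTCNNNGAA, on both strands. An ISRE match lay in the windows of 9 of the 24 genes (37.5%), against 3.99% of the 27025 genes in the table, and a GAS match in 7 (29.2%) against 9.55%. In the windows of the 28 listed genes found there, 1 GAS match overlapped an ISRE match. Ifit1, Ifit3, Oas3, Rsad2, Stat2 and Trim30a had ISRE matches wholly before the start. Their stretches are shown as matches to the element through which type I interferon is known to act. The GAS stretch of Irf1 is shown as the textbook case of the other element. Capitals mark the matches, flanked by 15 bases, and each stretch reads 5′ to 3′ along the gene's own strand.
Ifit1 (chr19:34640770-34640828, plus strand, matches ending 94 and 75 bases before the start): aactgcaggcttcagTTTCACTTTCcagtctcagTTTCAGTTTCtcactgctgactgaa
Ifit3 (chr19:34583358-34583431, plus strand, matches ending 146 and 112 bases before the start): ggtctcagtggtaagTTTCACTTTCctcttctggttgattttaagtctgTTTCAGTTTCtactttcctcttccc
Stat2 (chr10:128270261-128270300, plus strand, 212 bases before the start): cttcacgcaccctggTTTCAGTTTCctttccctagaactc
Oas3 (chr5:120777710-120777749, minus strand, 65 bases before the start): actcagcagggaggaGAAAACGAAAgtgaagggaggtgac
Rsad2 (chr12:26456548-26456587, minus strand, 110 bases before the start): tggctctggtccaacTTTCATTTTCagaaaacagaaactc
Trim30a (chr7:104465205-104465244, minus strand, 26 bases before the start): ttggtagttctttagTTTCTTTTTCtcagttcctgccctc
Irf1, GAS (chr11:53769909-53769947, plus strand, 81 bases before the start): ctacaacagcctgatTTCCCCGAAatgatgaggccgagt
A match describes letters in this window and is not a measured binding site. The 9 genes with an ISRE match had a median HDAC7-deficient minus wild-type difference of 0.60, or 0.37 without wild-type replicate 3. The 15 genes whose window held none had 1.11, or 0.49. Other measures ran in the other order. The mean of HDAC7-deficient replicates 2 and 3 exceeded replicate 1 by a median of 0.65 with a match and 0.45 without. It was higher in 9 of 9 and 13 of 15 genes, against 53.7% of all genes. Within the Xist-low arrays the medians were 0.09 and -0.02. Differences between these sets were not tested.

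Nearly all interferon-stimulated genes had a higher mean in the group labelled HDAC7 deficient, but no single gene passed the test, and HDAC7-deficient replicates 2 and 3 lay higher than replicate 1. Of the 32 genes, 31 had a higher mean in HDAC7 deficient, against 48.0% of all genes, with a median difference of 0.83 against -0.03 over all genes. The share depends on brightness: without the dimmest 50% of genes, 77.8% of the 8549 genes left were higher. Of the 32 genes, 28 were among those left. In bulk arrays, more cells that use a gene and more RNA per cell cannot be told apart. In limma, with Benjamini-Hochberg adjustment over all 17097 genes at a threshold of 0.05, none of the 32 genes and 0% of all genes passed, and the members' adjusted p-values ran from 0.377 to 0.902. At an unadjusted p under 0.05, 4 of the 32 were higher and 0 lower, against 3.52% and 9.14% of all genes. The 3 arrays of one group lay wholly above the 3 of the other for 8 of the 32 genes, all higher in HDAC7 deficient: Ifit2, Herc6, Samd9l, Mx2, Oas3, Trim30a, Parp14 and Stat2. Over all genes that was the case for 9.45% higher and 16.8% lower. The gap of Stat2 was narrow, with 9.79 on HDAC7-deficient replicate 1 and 9.76 on wild-type replicate 2. On the second probe sets of Stat2 and Parp14 the groups overlapped, with 8.38 against 8.64 and 6.370 against 6.388 on these arrays. On that of Trim30a they stayed apart, with 8.96 against 8.75.

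Leaving out wild-type replicate 3 lowered the median difference to 0.46, with 30 of the 32 genes still higher, against 43.2% of all genes and a median of -0.05. None of the 32 and 0% of all genes passed then, with limma adjusted p-values of 0.213 to 0.987 for the 32. At an unadjusted p under 0.05 there were 4 higher and 0 lower, against 5.19% and 8.84% of all genes. Groups stood apart for 9 genes, all higher, against 11.8% higher and 19.0% lower over all genes. The gene added was Eif2ak2. Differences also varied with brightness: the 15 members above the 75th percentile of mean level had a median of 0.87 where all 4275 genes above it had 0.56, and without wild-type replicate 3 these were 0.37 and 0.06. The other 17 members had 0.71, or 0.53, against -0.21, or -0.08. When arrays were weighted by their scatter, 28 of the 32 genes passed, but so did 49.4% of all genes.

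**Figure D1:**
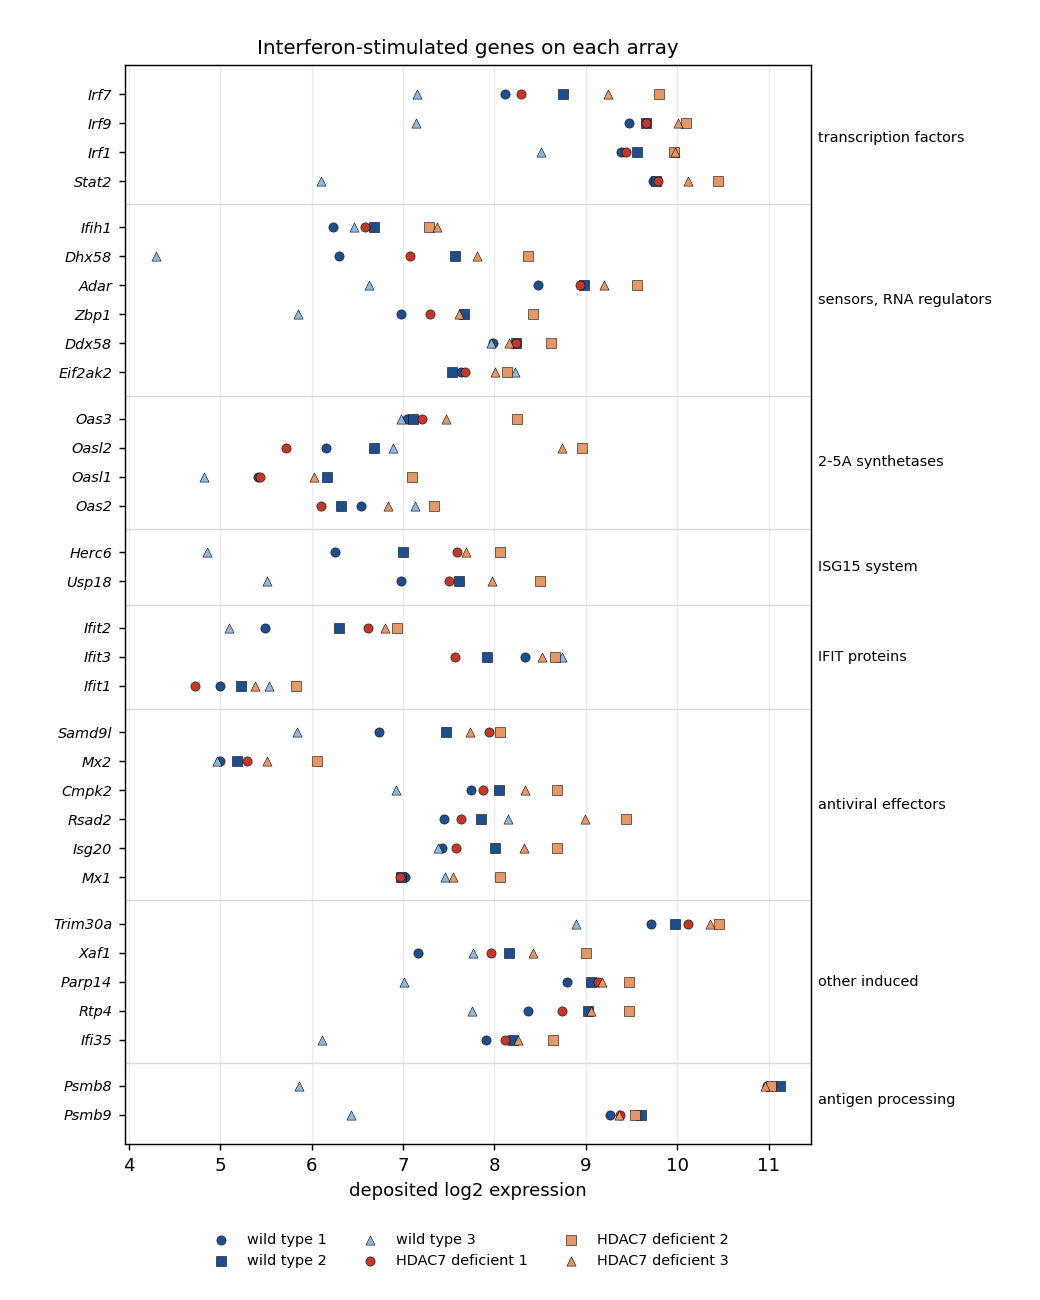
Deposited log2 expression (x axis) of the 32 measured interferon-stimulated genes (y axis, grouped by role) on each of the 6 arrays; circles, squares and triangles are replicates 1, 2 and 3, blue is wild type and red or orange is HDAC7 deficient. HDAC7-deficient replicate 2 was the highest array for 26 genes, and wild-type replicate 3 the lowest for 23.

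**Figure D2:**
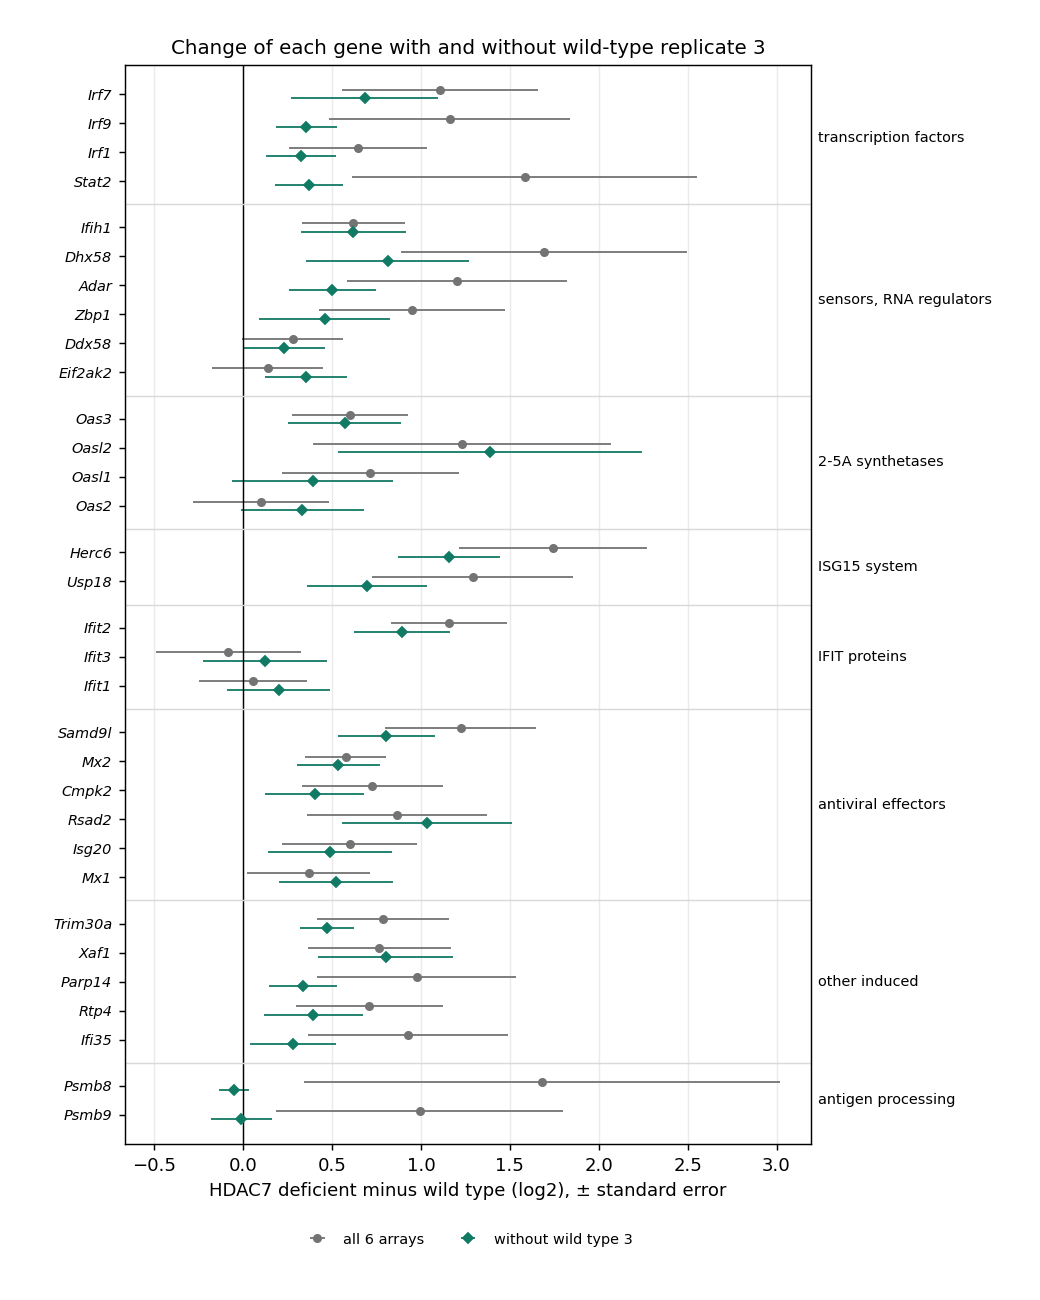
HDAC7-deficient minus wild-type difference (log2, x axis) of each gene with its limma standard error, over all 6 arrays (grey circles) and without wild-type replicate 3 (green diamonds). The median of the 32 differences is 0.83 with that array and 0.46 without it, and Psmb8 and Psmb9 move to -0.05 and -0.01.

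A step of similar size lay within the HDAC7-deficient group. The mean of HDAC7-deficient replicates 2 and 3 exceeded replicate 1 in 30 of the 32 genes, against 53.7% of all genes, with a median step of 0.58 against 0.03. It exceeded the mean of wild-type replicates 1 and 2 in 31 genes, against 40.2% of all genes, with a median of 0.68 against -0.07. HDAC7-deficient replicate 1 exceeded the mean of wild-type replicates 1 and 2 in 18 genes, against 45.9% of all genes, with a median of 0.05 against -0.04. HDAC7-deficient replicate 2 was the highest of the 6 arrays for 26 of the 32 genes, against 14.8% of all genes. Wild-type replicate 3 was the lowest for 23, against 37.8% of all genes. Genotype and the Xist division overlap only in part, with 1 HDAC7-deficient array among the Xist-low ones and 1 wild-type array, the one that stands apart, among the Xist-high ones. Fits with the division as a block are given further below. The one without wild-type replicate 3 had a median difference of 0.05 and rests on HDAC7-deficient replicate 1 alone. Whether the division takes part in the result was not tested beyond these fits.

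**Figure D3:**
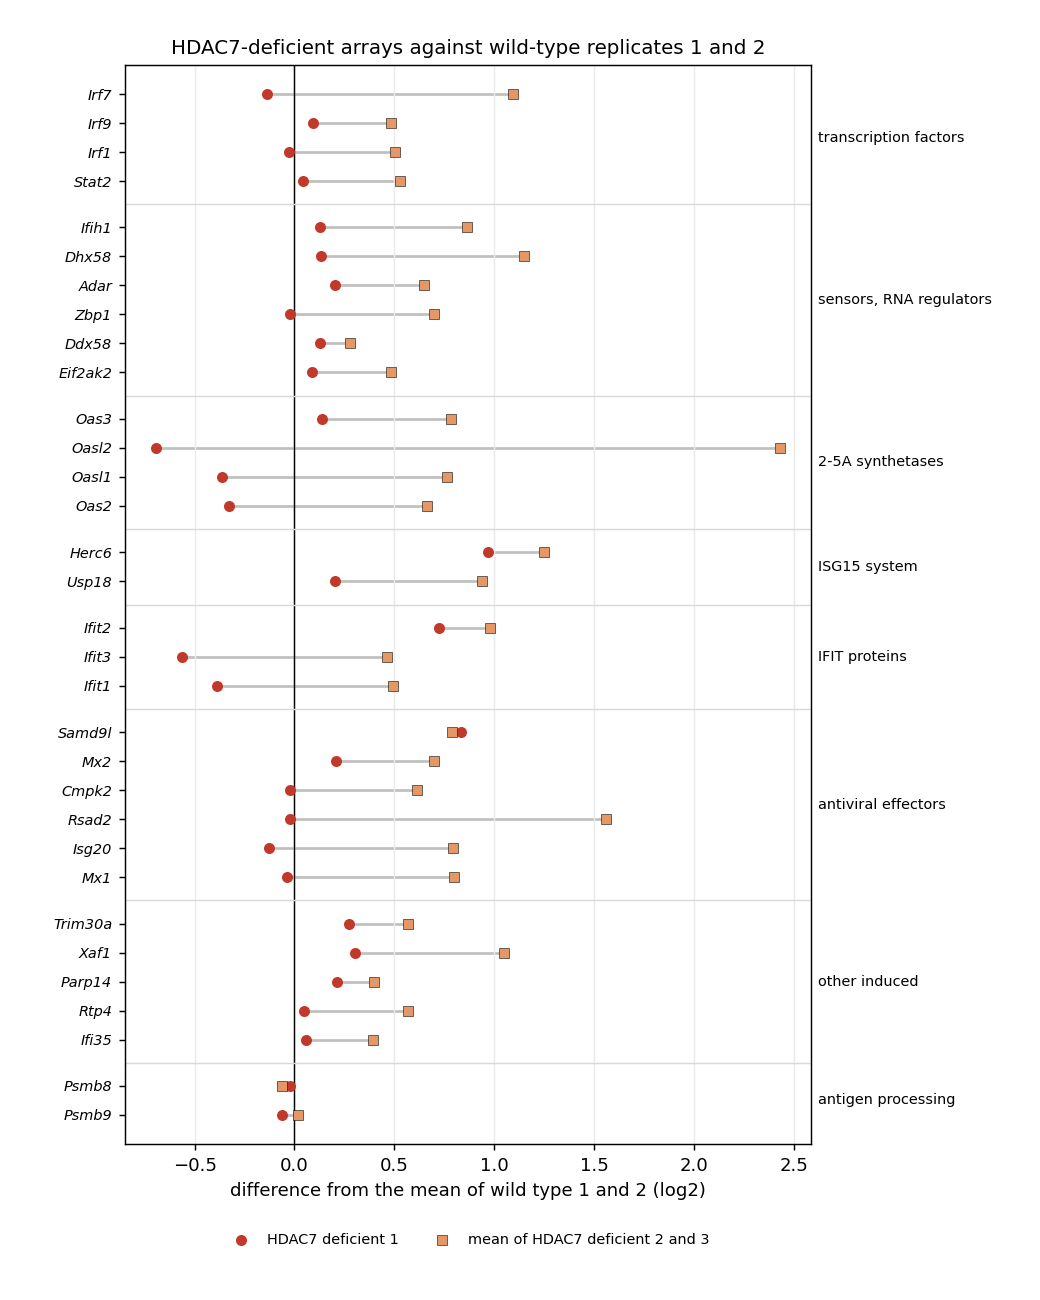
Difference of each gene from the mean of wild-type replicates 1 and 2 (log2, x axis), for HDAC7-deficient replicate 1 (red circles) and for the mean of HDAC7-deficient replicates 2 and 3 (orange squares), joined by a grey line. The circles have a median of 0.05 and the squares of 0.68; Herc6, Ifit2 and Samd9l are the genes whose circles lie farthest to the right, at 0.97, 0.72 and 0.83.

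Among the transcription factors, all 4 measured genes had higher means in HDAC7 deficient, with a median of 1.13, or 0.36 without wild-type replicate 3. Irf7, which amplifies type I interferon production, read 8.11, 8.75 and 7.15 in wild type and 8.29, 9.80 and 9.24 in HDAC7 deficient. Its groups overlapped, since HDAC7-deficient replicate 1 lay between wild-type replicates 1 and 2. The difference was 1.11 ± 0.55 (limma adjusted p = 0.378), or 0.68 ± 0.41 without wild-type replicate 3. Irf9, the DNA-binding part of the type I complex, read 9.47, 9.66 and 7.15 against 9.66, 10.09 and 10.01, a difference of 1.16 ± 0.68, or 0.35 ± 0.17. The wild-type value of 7.15 set most of that first difference. Stat2, the partner of IRF9, differed by 1.58 ± 0.97, or 0.37 ± 0.19, and Irf1, the factor induced by interferon gamma, by 0.64 ± 0.39, or 0.33 ± 0.20. In all 4 genes HDAC7-deficient replicate 1 lay within 0.14 of the mean of wild-type replicates 1 and 2, the farthest being Irf7 at -0.14.

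The sensors of viral nucleic acid and the RNA regulators had a median of 0.78, or 0.48 without wild-type replicate 3, and all 6 were higher in both. Dhx58, which encodes the RNA sensor LGP2, read 6.30, 7.57 and 4.30 in wild type and 7.07, 8.37 and 7.81 in HDAC7 deficient. The wild-type arrays spanned more than the difference between the groups, which was 1.69 ± 0.80, or 0.81 ± 0.46 without the lowest of them. Ifih1, which encodes the long double-stranded RNA sensor MDA5, read 6.23, 6.69 and 6.46 against 6.59, 7.28 and 7.37. HDAC7-deficient replicate 1 lay among the wild-type arrays, wild-type replicate 3 was not the lowest array, and the difference was 0.62 ± 0.29 with that array and 0.62 ± 0.30 without it (limma adjusted p = 0.377 and 0.391). Adar, the RNA-editing enzyme that keeps self RNA from the sensors, read 8.48, 8.98 and 6.63 against 8.93, 9.56 and 9.20, a difference of 1.20 ± 0.62, or 0.50 ± 0.25. Zbp1, a sensor of Z-form nucleic acid, differed by 0.95 ± 0.52, or 0.46 ± 0.37, and Ddx58, which encodes RIG-I, by 0.28 ± 0.28, or 0.23 ± 0.23. Eif2ak2, the kinase PKR that halts translation, differed by 0.14 ± 0.31, or 0.35 ± 0.23.

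The 2-5A synthetases make the second messenger that activates RNase L, and Oasl1 and Oasl2 are relatives of them. Their median was 0.66, or 0.48 without wild-type replicate 3. Within the HDAC7-deficient group, Oasl2 had the widest step of all 32 genes from replicate 1 to the mean of replicates 2 and 3. It read 6.15, 6.68 and 6.89 in wild type and 5.72, 8.96 and 8.74 in HDAC7 deficient. HDAC7-deficient replicate 1 was thus the lowest of the 6 arrays, 3.13 below the mean of the other two in its group. The difference was 1.23 ± 0.84 (limma adjusted p = 0.417), or 1.39 ± 0.85 without wild-type replicate 3. Oas3 read 7.04, 7.11 and 6.98 against 7.21, 8.25 and 7.48, with no overlap and a difference of 0.60 ± 0.33, or 0.57 ± 0.32. Oasl1 differed by 0.71 ± 0.50, or 0.39 ± 0.45, and Oas2 by 0.10 ± 0.38, or 0.33 ± 0.35. Oas3 was the one gene of the 4 in which HDAC7-deficient replicate 1 exceeded the mean of wild-type replicates 1 and 2, by 0.14, against -0.33 to -0.69 for the others.

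Of the ISG15 system, Isg15 itself was not measured. Herc6, the main ligase that attaches ISG15 in mouse cells, read 6.25, 6.997 and 4.86 in wild type and 7.60, 8.06 and 7.68 in HDAC7 deficient. All 3 HDAC7-deficient arrays lay above all wild-type arrays, and replicate 1 did so too, by 0.97 over the mean of wild-type replicates 1 and 2. Herc6 lay above the dim mark on 4 arrays, with wild-type replicates 1 and 3 below it. The difference was 1.74 ± 0.53, or 3.35-fold, with a limma adjusted p of 0.377, and 1.16 ± 0.29, or 2.23-fold, without wild-type replicate 3 (adjusted p = 0.213). Usp18, which removes ISG15 and dampens the receptor, read 6.98, 7.61 and 5.51 against 7.50, 8.50 and 7.97. Its groups overlapped through HDAC7-deficient replicate 1, and the difference was 1.29 ± 0.57, or 0.70 ± 0.34.

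The IFIT proteins, which bind viral RNA and restrain its translation, had a median of 0.06, or 0.20 without wild-type replicate 3, when 3 of 3 were higher. Differences between the 3 genes were not tested. Ifit2 read 5.49, 6.30 and 5.10 in wild type and 6.61, 6.93 and 6.80 in HDAC7 deficient. The groups did not overlap, and HDAC7-deficient replicate 1 stood 0.72 above the mean of wild-type replicates 1 and 2. Ifit2 lay above the dim mark on 4 arrays, with wild-type replicates 1 and 3 below it. The difference of 1.16 ± 0.33 (2.23-fold, limma unadjusted p = 0.00951, adjusted p = 0.377) had the smallest p among the 32 genes; it was 0.89 ± 0.27 without wild-type replicate 3. Ifit3 read 8.34, 7.92 and 8.74 against 7.57, 8.66 and 8.52, so that wild-type replicate 3 was its highest array and HDAC7-deficient replicate 1 its lowest. It differed by -0.08 ± 0.41, or 0.12 ± 0.35. Ifit1 also had HDAC7-deficient replicate 1 lowest, lay above the dim mark on 1 array, and differed by 0.06 ± 0.30, or 0.20 ± 0.29. Ifit1 and Ifit3 are the pair whose windows above hold the same 2 ISRE matches, while the Ifit2 windows in the table held no ISRE match.

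The antiviral effectors were all higher in HDAC7 deficient, with a median of 0.66 over 6 measured genes, or 0.53 without wild-type replicate 3. Samd9l, which restrains translation and growth, read 6.74, 7.47 and 5.84 in wild type and 7.94, 8.06 and 7.73 in HDAC7 deficient. It was the effector with all HDAC7-deficient arrays close together, replicates 2 and 3 differing from replicate 1 by -0.04. The difference was 1.22 ± 0.43 (2.34-fold, limma adjusted p = 0.377), or 0.80 ± 0.27. Mx2, a dynamin-like GTPase that blocks viruses, read 4.99, 5.19 and 4.96 against 5.30, 6.06 and 5.52. Its groups did not overlap, but all arrays except 1 lay below the dim mark; the difference was 0.58 ± 0.23, or 0.53 ± 0.23. Its relative Mx1 differed by 0.37 ± 0.35, or 0.52 ± 0.32. Rsad2, which encodes viperin, an enzyme that makes a chain-terminating nucleotide, differed by 0.87 ± 0.51, or 1.03 ± 0.48, and its genomic neighbour Cmpk2, a nucleotide kinase, by 0.73 ± 0.40, or 0.40 ± 0.28. Isg20, an RNA exonuclease, differed by 0.60 ± 0.38, or 0.49 ± 0.35.

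The other induced genes had a median of 0.79, or 0.40 without wild-type replicate 3, and all 5 measured were higher. Trim30a, a TRIM protein of the innate response, read 9.71, 9.97 and 8.89 in wild type and 10.11, 10.46 and 10.35 in HDAC7 deficient. The groups stood apart with and without wild-type replicate 3, at 0.79 ± 0.37 and 0.47 ± 0.15 (limma adjusted p = 0.377 and 0.274). Xaf1, a promoter of cell death, read 7.17, 8.16 and 7.77 against 7.97, 8.9997 and 8.42, which overlap, with 0.77 ± 0.40, or 0.80 ± 0.38. Parp14, an ADP-ribosyltransferase, differed by 0.98 ± 0.56, or 0.34 ± 0.19. Rtp4 differed by 0.71 ± 0.42, or 0.40 ± 0.28, and Ifi35 by 0.93 ± 0.56, or 0.28 ± 0.24.

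The antigen processing genes were the 2 members whose difference was below 0 once wild-type replicate 3 was left out. Psmb8, a catalytic subunit of the immunoproteasome, read 10.99, 11.13 and 5.86 in wild type and 11.03, 11.02 and 10.96 in HDAC7 deficient. The 5 arrays other than wild-type replicate 3 lay close together, and the difference went from 1.68 ± 1.34 to -0.05 ± 0.08. Psmb9, another such subunit, read 9.27, 9.61 and 6.43 against 9.37, 9.54 and 9.36, and went from 0.99 ± 0.81 to -0.01 ± 0.17. A second Psmb9 probe set of similar brightness gave 0.88 and, without that array, 0.28. Among the 10 other measured genes of MHC class I presentation, the median likewise went from 1.13 to 0.04. Nlrc5, the transactivator of class I genes, had the smallest p of that list and read 7.61, 8.24 and 6.51 against 8.53, 9.01 and 8.68, or 1.29 ± 0.47 and, without wild-type replicate 3, 0.81 ± 0.26. There H2-T23, a nonclassical class I gene, had 1.39 ± 0.92, or 0.24 ± 0.12, and Tapbp, the peptide-loading factor tapasin, 1.76 ± 1.25, or 0.15 ± 0.11.

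Of the 16 listed genes for the interferons themselves 8 were measured, and only 1 to 4 of them lay above the dim mark on any array. Of the 8, 1 had a higher mean in HDAC7 deficient and 7 lower, with a median of -0.35, or -0.22 without wild-type replicate 3. Ifng, which encodes interferon gamma, read 5.62, 5.95 and 5.96 in wild type and 6.20, 8.21 and 7.76 in HDAC7 deficient. Its HDAC7-deficient replicates 2 and 3 stood well above the remaining arrays, and the difference was 1.55 ± 0.51 (limma adjusted p = 0.377), or 1.61 ± 0.52. Ifnb1, the type I interferon of most cells, lay below the dim mark on all 6 arrays, at 4.92 to 5.33, and differed by -0.21 ± 0.15, or -0.12 ± 0.13 without wild-type replicate 3. Ifna1 and Ifnab differed by -0.93 ± 0.43 and -0.39 ± 0.20, or -0.46 ± 0.23 and -0.31 ± 0.19, but interferon alpha genes are near-identical copies that probes may not tell apart.

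Of the 15 measured genes of interferon receptors and signalling, 14 were higher, with a median of 0.72, or 0.19 without wild-type replicate 3. Over all genes 48.0% were higher, and 77.8% without the dimmest 50% of genes. The 4275 genes above the 75th percentile of mean level had a median of 0.56, or 0.06. The type I receptor genes Ifnar1 and Ifnar2 differed by 0.61 ± 0.41 and 0.80 ± 0.50, or 0.19 ± 0.16 and 0.25 ± 0.12. Ifngr2, a chain of the interferon gamma receptor, differed by 0.87 ± 0.38, or 0.59 ± 0.27. Il10rb differed by 0.78 ± 0.41, or 0.38 ± 0.24, and the inhibitor Socs3, below the dim mark on all 6 arrays, by 0.30 ± 0.16, or 0.33 ± 0.16. Within the HDAC7-deficient group their median step from replicate 1 to the mean of replicates 2 and 3 was 0.04, beside 0.58 for the interferon-stimulated genes.

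Of 14 measured genes of nucleic acid sensing upstream of interferon, 13 were higher, with a median of 0.50, or 0.25 without wild-type replicate 3. Over all genes 48.0% were higher, and 77.8% without the dimmest 50% of genes. Tlr7, an endosomal receptor of single-stranded RNA, read 6.82, 7.61 and 7.14 in wild type and 7.68, 9.21 and 9.16 in HDAC7 deficient, or 1.49 ± 0.48. The kinase gene Tbk1 differed by 1.09 ± 0.51 and the adaptor gene Traf6 by 0.84 ± 0.46, or 0.56 ± 0.32 and 0.39 ± 0.24 without wild-type replicate 3. The 7 measured interferon regulatory factor genes outside the list had a median of 0.75, or 0.20, with Irf5 at 0.79 ± 0.37, or 0.46 ± 0.23, and Irf2bp2 at 0.40 ± 0.27, or 0.29 ± 0.10. Irf2, above the dim mark on 2 arrays, differed by 0.75 ± 0.34, or 0.78 ± 0.35.

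A further list of 36 measured interferon-stimulated genes had a smaller median, 0.56, or 0.30 without wild-type replicate 3, with 30 and 28 genes higher. The shares over all genes were 48.0% and 43.2%. At an unadjusted p under 0.05, 2 were higher and 1 lower of 36, beside 3.52% and 9.14% of all genes, and without wild-type replicate 3 there were 6 and 1, beside 5.19% and 8.84%. Helz2, a helicase-like coactivator, read 5.22, 5.76 and 5.05 in wild type and 6.26, 6.92 and 6.30 in HDAC7 deficient, or 1.15 ± 0.28. Apol9a went the other way with no overlap, reading 8.13, 7.59 and 8.99 against 6.57, 6.84 and 7.04, or -1.42 ± 0.40 and, without wild-type replicate 3, -1.05 ± 0.26 (limma adjusted p = 0.377 and 0.212). Ifi204, a DNA-binding family member, had 1.21 ± 0.37 at levels of 3.74 to 5.93. No gene of these pathway lists passed an adjusted p of 0.05.

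Other gene lists also differed between the arrays, in part like the interferon-stimulated genes and in part unlike them. The 12 measured immediate early and heat shock genes had a median difference of 2.04, or 2.66 without wild-type replicate 3, and a median step of 1.08 between HDAC7-deficient replicate 1 and the mean of replicates 2 and 3. By the smallest p, the leading genes were Jun at 2.76 ± 0.36, Hspa1b at 3.72 ± 0.49 and Fosb at 4.16 ± 0.68. Unlike the interferon-stimulated genes, with 0.05, the list stood high on HDAC7-deficient replicate 1, by a median of 1.25 over wild-type replicates 1 and 2, and wild-type replicate 3 was not its lowest wild-type array. All 9 measured of 12 plasmacytoid dendritic cell markers were higher, against 48.0% of all genes and 77.8% without the dimmest 50% of genes. The markers had mean list levels of 9.41, 9.83 and 7.23 in wild type and 9.78, 10.30 and 10.15 in HDAC7 deficient. Their median of 1.30 fell to 0.40 without wild-type replicate 3 and to 0.10 within the Xist-low arrays, and all 9 were higher on the mean of HDAC7-deficient replicates 2 and 3 than on replicate 1. These cells make much type I interferon, and Irf8, Tcf4 and Spib of that list, which B cell precursors also express, lay above 10 on every array but wild-type replicate 3. Of the 12 measured pro-B markers, 9 were higher with all arrays and 3 without wild-type replicate 3, with medians of 0.18 and -0.23, and HDAC7-deficient replicates 2 and 3 lay below replicate 1 (median difference -0.73). The part of any of these lists in the result was not tested.

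**Figure D4:**
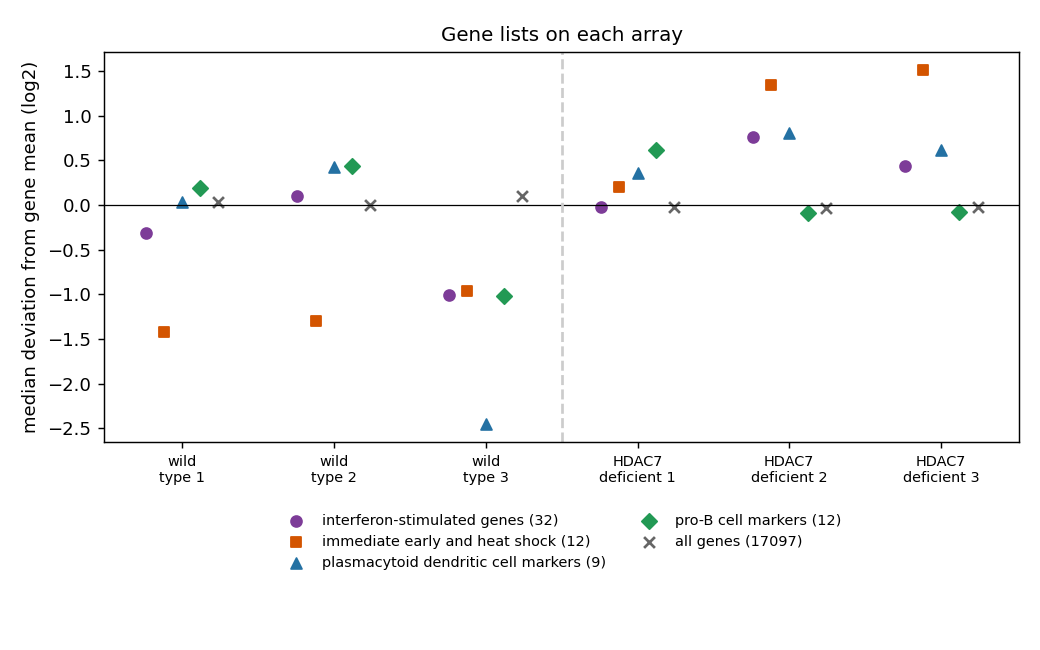
Median deviation of each gene list from its genes' own means over the 6 arrays (log2, y axis) on each array (x axis), with the number of genes per list in the key. The interferon-stimulated genes read -0.31, 0.10 and -1.01 on wild-type replicates 1 to 3 and -0.02, 0.76 and 0.43 on HDAC7-deficient replicates 1 to 3.

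Mean list levels of the remaining markers, in wild type and HDAC7 deficient, were 7.27 to 7.46 and 7.44 to 8.02 for monocytes and macrophages (6 of 9 higher), and 9.65 to 10.65 and 10.53 to 11.16 for neutrophils (6 of 8 higher). They were 7.19 to 8.78 and 8.48 to 8.86 for NK cells (5 of 7), 6.93 to 7.93 and 7.80 to 8.42 for T cells (6 of 6), 6.56 to 6.96 and 5.94 to 7.57 for erythroid cells (4 of 6), and 7.52 to 8.75 and 7.64 to 8.32 for mature B cells (3 of 6). The step from HDAC7-deficient replicate 1 to the mean of replicates 2 and 3, 0.58 in the median of the interferon-stimulated genes, was 1.65 for erythroid markers (6 of 6 higher), 0.65 for neutrophil markers (8 of 8) and 0.31 for monocyte and macrophage markers (9 of 9). It was 0.50 for mature B (5 of 6), 0.23 for T (5 of 6) and 0.02 for NK markers (4 of 7). Over all genes this step was higher in 53.7%. The group difference was above 0 in 48.0% of all genes, and in 77.8% without the dimmest 50% of genes. Of the macrophage list, Mpeg1 and Lyz2 lay above the dim mark on all 6 arrays, Cd68, Csf1r and Itgam on 5, Adgre1 on 2, and Cd14, Fcgr1 and C1qa on 1. Itgam, an integrin of myeloid cells, had the largest difference of that list, 1.51 ± 0.42, with its groups apart. The list median was 0.20, and Adgre1, Cd14 and Fcgr1 were lower, by -0.26, -0.24 and -0.03. Without wild-type replicate 3 the list median was 0.22, with 8 of 9 higher. The part of these cell types in the result was not tested.

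For 13 of the 32 genes more than 1 probe set carried the symbol. For 5 of these, Ddx58, Dhx58, Rtp4, Xaf1 and Zbp1, the probe sets differed in sign over all 6 arrays. Without wild-type replicate 3 those of Xaf1 no longer did, at 0.80 and 0.04, while those of Psmb9 did, at -0.01, 0.28 and -0.04. The values that follow are over all 6 arrays unless stated. The second probe sets of Rtp4 and Zbp1 gave -0.58 ± 0.37 and -0.36 ± 0.30, at lower levels than the ones used. For Ddx58, the probe sets not used gave -0.56 ± 0.33 and 0.14 ± 0.27, at means of 6.61 and 5.56 against 8.20. The Dhx58 probe sets gave 1.69 and 1.26 at means of 6.90 and 6.64 and -0.33 at a mean of 4.18. Those of Adar gave 1.20, 1.45 and 1.17, and those of Trim30a 0.79 and 1.15. The 3 Rsad2 probe sets gave 0.87, 0.06 and 0.23, or 1.03, 0.49 and 0.29 without wild-type replicate 3. The difference of that gene thus depends on which is read.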

How the data were processed

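Affymetrix mouse PM strip arrays measured RNA of sorted pro-B cells, 3 arrays per group, described by the labels as biological triplicates. The authors deposited 1 log2 value per probe set and array. How they normalized them is not given in the sources used here; that the scale is log2 follows from the range of the values. Of 45141 probe sets, 104 controls were set aside. A platform annotation gave 1 symbol to 28898 probe sets, several to 551 and none to 15588; symbols were updated by Entrez number for 28689, through a RefSeq table. The probe set with the highest mean represented each of 17097 genes. Differences are HDAC7 deficient minus wild type, ± standard error, from limma 3.58.1 in R 4.3.3 with trended variances, two-sided, Benjamini-Hochberg adjusted over all genes; no dim genes were removed. The fit was tested on simulated data. With 3 arrays per group, no exact permutation p can be under 0.1, and the number of arrays limits the precision.

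The members and lists were chosen with earlier results of these data known. Every member is named; those given array by array are the 2 smallest unadjusted p per role group plus any others among the 12 smallest, and pathway lists name the 3 smallest plus Ifnb1, Ifng, Ifnar1 and Ifnar2; 1 further gene of that rule is not reported here. Arrays were divided by Xist against the Y-linked Eif2s3y and Kdm5d. Other genes were named after their values were seen. REML array weights did not converge, so gene-by-gene weights were used. Figures used matplotlib 3.10.9 in Python 3.11.15.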

Additional observations from a re-analysis of the deposited data

How the results depend on the processing

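No member passed an adjusted p of 0.05 in limma under any of the 18 alternatives except array weights, where 28 did, with weights from 0.0716 (wild-type replicate 3) to 8.68 (wild-type replicate 1); 29 then had an unadjusted p under 0.05, all higher, against 23.8% of all genes higher. In the main fit over all 6 arrays, the count at an adjusted p of 0.1 was 0 and at an unadjusted p of 0.05 it was 4. That last count, all higher, was 8 with the replicate block (4.41% of all genes higher), 10 with the Xist division as a block (15.7%), 2 with this block and without wild-type replicate 3 (6.75%), and 2 of 28 without the dimmest 50% of genes (5.79%). Leaving out 1 array at a time gave 2 to 12 such genes (2 without wild-type replicate 1 or HDAC7-deficient replicate 2, against 1.30% and 0.988% of all genes; 12 without wild-type replicate 2, against 10.6%; 7 without HDAC7-deficient replicate 1, against 2.42%), 29 to 32 genes higher, 8 to 24 with groups apart, all higher (24 without wild-type replicate 2, against 26.5% of all genes; 23 without HDAC7-deficient replicate 1, against 14.2%) and medians of 0.46 (without wild-type replicate 3) to 1.05. With the Xist block and without wild-type replicate 3 the median was 0.052 and 18 genes were higher. Quantile normalization left 4 genes with groups apart, against 10.9% of all genes higher.

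Of the 32 differences, 16 kept their sign in every alternative. Leaving out 1 array gave -0.20 to 0.35 for Ifit1, -0.29 to 0.26 for Ifit3, -0.19 to 0.43 for Oas2, -0.050 to 2.58 for Psmb8 and -0.0099 to 1.58 for Psmb9. The Xist block turned Ifit1 to -0.16, Oas2 to -0.18 and Eif2ak2 to -0.036. The same block without wild-type replicate 3 gave Ifit1 -0.39, Isg20 -0.13, Mx1 -0.036, Oas2 -0.33, Oasl1 -0.36, Oasl2 -0.69, Irf1 -0.027, Irf7 -0.14, Rsad2 -0.021, Zbp1 -0.023, Cmpk2 -0.023, Psmb8 -0.024 and Psmb9 -0.061; it rests on HDAC7-deficient replicate 1 alone. Quantile normalization gave Mx1 -0.031, Oas2 -0.073, Ddx58 -0.25 and Eif2ak2 -0.40. Median centring turned Ifit3 to 0.011, array weights to 0.16, and the mean over probe sets gave Ddx58 -0.047. The cause of these turns was not tested. Same-numbered arrays had correlated deviations of 0.0964, 0.208 and 0.476, and not every array correlated best with its own number, so the replicate numbers were not taken as pairs.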

Other observations

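In 7 of the 32 genes all 3 Xist-high arrays, wild-type replicate 3 included, lay above all 3 Xist-low arrays: Ifit1, Ifit3, Mx1, Oas2, Oasl2, Rsad2 and Eif2ak2 (21.9%, against 4.11% of all genes; 0 genes ran the other way, against 7.18%). The gap was narrow, as for Ifit3 with a lowest Xist-high value of 8.52 and a highest Xist-low value of 8.34, or Rsad2 with 8.15 and 7.86. In 4 of the 7, wild-type replicate 3 lay below its dim mark of 7.93. These genes were chosen after their values were seen.

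The mature B cell gene Ms4a1, which encodes CD20, read 11.35 on wild-type replicate 3 and 4.57 to 7.40 on the other arrays. Of the 6 measured mature B cell markers, that array was the highest for 3 and the lowest for 2. Cr2 and Fcer2a were also highest there, at 6.69 and 7.24, but below its dim mark of 7.93. Cd74 and H2-Aa were lowest there, at 8.37 and 10.26.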
